A study of Mus musculus with 6 samples.

Results

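The genes described here are 36 genes that mark astrocytes or the radial glia from which astrocytes arise, read on microarrays of mouse primary somatosensory cortex (S1) at postnatal day 7. They were taken by name: every non-control probe whose gene name in the scanner files equalled a listed gene was used, which gave 48 probes for 36 genes, out of 35514 genes on the array and 32697 that were tested. Ppap2b is kept under the array's name (its RefSeq symbol is Plpp3). The study compared 3 S1 samples from Lhx2 conditional knockout mice, genotype Lhx2f/f;Nex-Cre and labelled cKO, with 3 from control mice, genotype Lhx2f/f and called WT in the sample titles. All mice were of the C57BL/6 strain, aged P7 and carried the floxed Lhx2 allele, and each sample was read on 1 one-colour array. Nex-Cre acts in postmitotic excitatory neurons of the cortex, so the design aims the deletion at those neurons and not at the astrocytes whose genes are described. Nothing in the labels ties the samples to separate mice, so p-values measure the spread between these 6 samples only, part of which may be technical.

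Astrocytes arise from radial glia around birth, multiply during the first postnatal weeks and then mature. Radial glia and young astrocytes share the filaments vimentin and nestin, the lipid-binding protein Fabp7 and the glutamate transporter Slc1a3. Maturing astrocytes build up Gfap, the transporter Slc1a2, the water channel Aqp4, connexins and the enzymes that recycle glutamate and supply neurons. Several of these genes are also read in other cells, such as Apoe in microglia, Glul in oligodendrocytes and Vim in vessels and meninges. RNA of a whole piece of cortex was measured, so fewer astrocytes and less of an RNA per astrocyte cannot be told apart.

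All 36 genes were well above background on all 6 arrays, the defining markers Gfap, Aqp4, Slc1a2 and Aldh1l1 included. The Lhx2 probe gave a log2 signal of 4.55, 4.68 and 4.89 in the arrays labelled cKO, against 3.62, 3.63 and 3.55 in control, which was higher by 1.1 in the arrays labelled cKO (adjusted p = 0.067) and goes against their label. Neurod6, the gene whose locus carries Nex-Cre, was higher by 0.37 (adjusted p = 0.52). For each of these genes every array labelled cKO lay above every control array, as for 6.98% of all genes. The part of Lhx2 that the floxed allele loses is not stated. It therefore cannot be told whether the probe reads RNA that the deletion leaves, in whatever amount, or the labels are at odds with the data. What the Nex-Cre allele does to the Neurod6 RNA is not stated either. Why both genes were higher in the arrays labelled cKO was not tested. All directions given here follow the labels and would turn if the labels were swapped. Signal from Y-linked genes was above background in control replicates 1 and 3, where 3 Y-linked probes were well above background, and in none of the other 4 arrays. All 6 arrays lay on 1 slide. Between 86.7% and 91.1% of probes were well above background per array and no spot was saturated, and the number of arrays limits the precision.

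Levels are given as log2 signal, the log2 of a probe's processed intensity minus the array's 75th percentile. A value of 0 is a signal equal to that percentile, and values of different probes have no common scale. Differences are the mean of the 3 arrays labelled cKO minus the mean of the 3 control arrays, with p-values from limma adjusted by the Benjamini-Hochberg method over 32697 genes and called at an adjusted p of 0.05.

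By sign, 34 of the 36 astrocyte genes were lower in the arrays labelled cKO, against 44.3% of all genes tested. The median difference over the 36 was -0.41, beside 0.02 over all genes. None of the 36 passed the adjusted threshold, which 0.00918% of all genes did, so no single gene of the list can be called changed. Gfap did pass with median centring, with either normexp background correction, with an intensity trend and with array weights, the last of which called 11 of the 36, all lower. Over all 32697 genes these settings called 24, 89 and 75, 110 and 453, against 3 in the main fit. Of the 453, 287 were lower, and the weights were largest for control replicate 2 (3.61) and cKO replicate 3 (2.17). At an unadjusted p of 0.05, 24 were lower and 0 were higher, beside 4.37% lower and 3.13% higher among all genes. Those 24 were 1.21 to 2.22 times lower, and their adjusted p-values ran from 0.089 to 0.63. For 23 genes every array labelled cKO lay below every control array, which 6.19% of all genes did, and for none were they all above, as they were for 6.98%. In 19 the difference was below -0.4, a size passed by 3.96% of all genes.

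**Figure D1:**
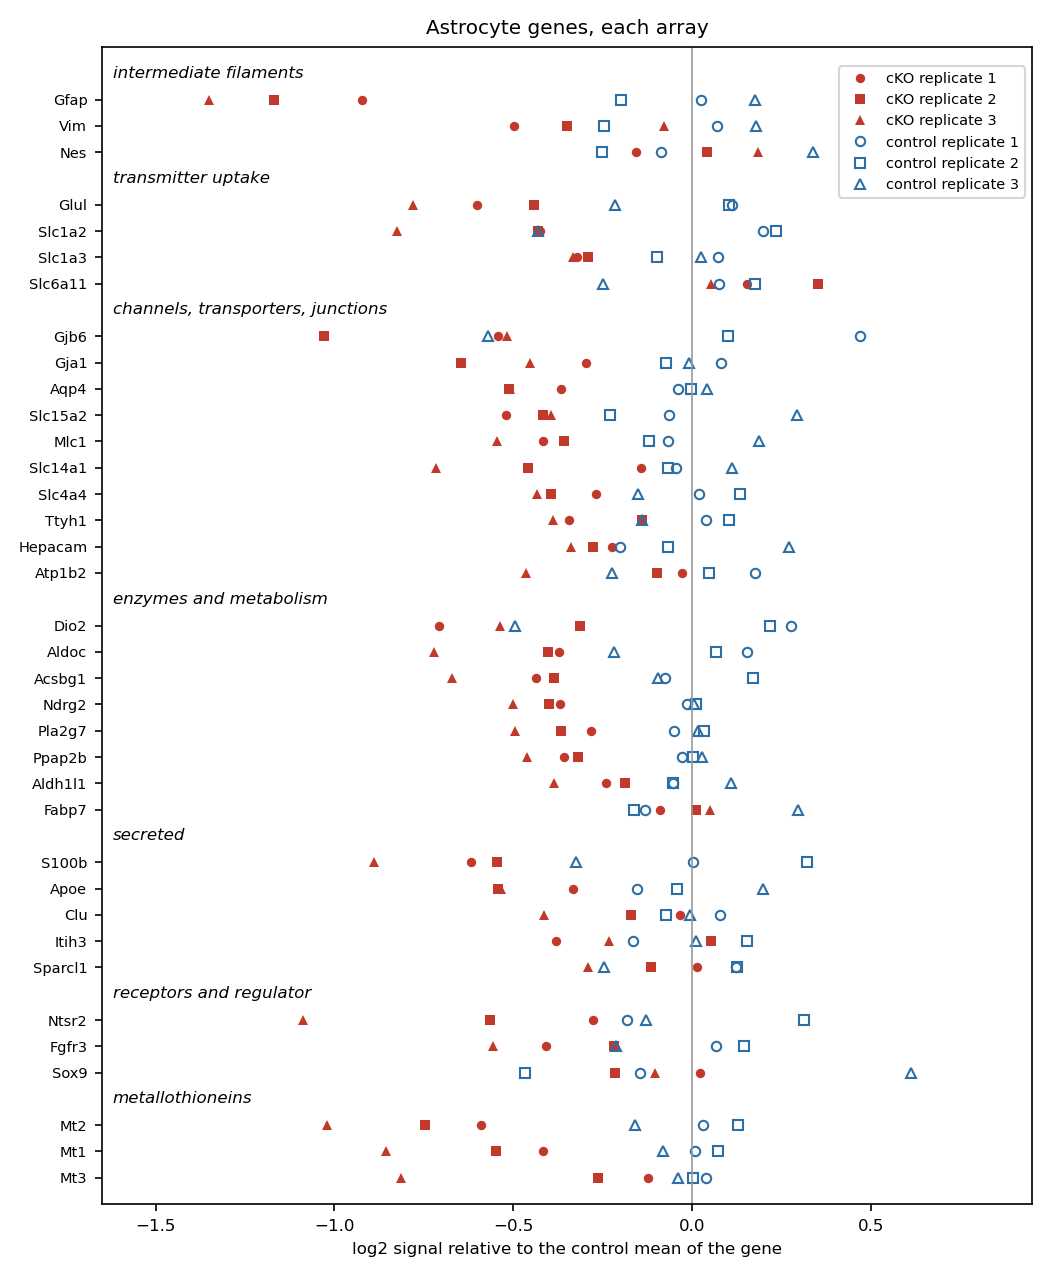
Log2 signal of each astrocyte gene on each array, as the distance from that gene's control mean (x axis, log2), with arrays labelled cKO as filled red marks, control arrays as open blue marks, and genes grouped by role. The red marks lie left of all blue marks for 23 of the 36 genes, with Gfap farthest to the left.

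The intermediate filaments gave the largest difference and one of the smallest. Gfap, the main filament protein of astrocytes, had a log2 signal of 0.27, 0.02 and -0.16 in the arrays labelled cKO, against 1.22, 0.99 and 1.36 in control. The 3 arrays labelled cKO lay well below all control arrays, with an SD of 0.21 over the arrays labelled cKO and of 0.19 over the control arrays. Gfap was 2.22 times lower, a difference of -1.15 (95% confidence interval -1.5 to -0.79, adjusted p = 0.089), the smallest p of the list. Vim, the filament of radial glia and immature astrocytes, read 2.27, 2.42 and 2.69 in the arrays labelled cKO, against 2.84, 2.52 and 2.95 in control. Its groups overlapped, because cKO replicate 3 lay above control replicate 2. Nes, the filament of neural progenitors, read 0.82, 1.01 and 1.16 in the arrays labelled cKO, against 0.88, 0.72 and 1.31 in control, with the arrays of both groups interleaved. The differences were -0.31 (95% confidence interval -0.68 to 0.06, adjusted p = 0.78) for Vim and 0.02 (95% confidence interval -0.39 to 0.44, adjusted p = 0.9993) for Nes.

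Gfap was read by 3 probes. The probe at chr11:102748864-102748923 and the probe at chr11:102751813-102751872 (mm9, minus strand), which belong to different transcript models in the files, differed by -1.2 and -1.15. The third probe, at chr11:102752726-102752785, is dim and read -2.09, -3.40 and -3.13 in the arrays labelled cKO, against -2.30, -2.59 and -2.24 in control. Its groups overlapped, and its difference was -0.50 with a confidence interval of -1.28 to 0.29. The sequence of that dim probe is shown because it is the Gfap probe that did not separate the groups.
Gfap, probe at base 1294 of its transcript: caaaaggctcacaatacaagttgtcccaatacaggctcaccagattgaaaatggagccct

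The promoter of Gfap, 300 bases around its start at chr11:102897151-102897450 (RefSeq, GRCm38.p6, minus strand), is shown because Gfap stood apart and because signals of the Janus kinase and Stat route are known to switch the gene on. It held 1 match to the STAT motif TTCNNNGAA, in capitals. That motif reads the same on both strands and occurs in 8.30% of all 32851 promoters of this length.
Gfap promoter: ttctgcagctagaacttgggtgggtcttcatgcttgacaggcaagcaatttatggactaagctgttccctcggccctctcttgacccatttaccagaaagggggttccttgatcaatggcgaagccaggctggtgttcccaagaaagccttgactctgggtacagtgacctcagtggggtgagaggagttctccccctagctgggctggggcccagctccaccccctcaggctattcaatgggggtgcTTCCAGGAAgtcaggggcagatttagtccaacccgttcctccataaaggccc

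Uptake and recycling of transmitter was split by gene. Slc1a2, the glutamate transporter of mature astrocytes, read 1.48, 1.48 and 1.08 in the arrays labelled cKO, against 2.10, 2.14 and 1.47 in control. Control replicate 3 fell among the values of the arrays labelled cKO, while control replicates 1 and 2 lay above them. Slc1a3, the glutamate transporter that radial glia already carry, read 3.06, 3.09 and 3.05 in the arrays labelled cKO, against 3.46, 3.29 and 3.41 in control, and Glul, the glutamine synthetase that turns glutamate into glutamine, read 3.67, 3.83 and 3.49 in the arrays labelled cKO, against 4.39, 4.38 and 4.06 in control. Both separated the groups without overlap. The differences were -0.56 (95% confidence interval -1.06 to -0.06, adjusted p = 0.58) for Slc1a2. They were -0.32 (95% confidence interval -0.53 to -0.10, adjusted p = 0.40) for Slc1a3 and -0.61 (95% confidence interval -0.93 to -0.28, adjusted p = 0.30) for Glul. Slc6a11, a GABA transporter of astrocytes, was the exception and read 0.80, 1.0 and 0.70 in the arrays labelled cKO, against 0.72, 0.82 and 0.40 in control. It was higher by sign and overlapped, with a difference of 0.19 (95% confidence interval -0.15 to 0.53, adjusted p = 0.93).

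Slc1a2 was read by 3 probes. The one that stands for the gene, at chr2:102617752-102617811 (mm9, plus strand), is the only one of them whose groups overlapped, and its sequence is shown for that reason. The probe at base 2881 of another transcript model read -1.24, -1.28 and -1.24 in the arrays labelled cKO, against -0.57, -0.68 and -0.59 in control, a difference of -0.65 beside an SD of 0.02 over the arrays labelled cKO and of 0.06 over the control arrays. Its adjusted p over all 50030 probes was 0.14. The probe at base 7009 differed by -0.44 and did not overlap either.
Slc1a2, probe at base 1615 of its transcript: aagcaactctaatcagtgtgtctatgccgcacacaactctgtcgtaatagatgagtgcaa

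Channels, transporters and junction proteins were lower by sign in 10 of 10 genes, with a median difference of -0.44. Aqp4, the water channel of astrocyte endfeet, read 1.73, 1.59 and 1.59 in the arrays labelled cKO, against 2.06, 2.10 and 2.14 in control. The spread within each group was small, and the groups stood clear of each other. Mlc1, an endfoot membrane protein, read 4.29, 4.35 and 4.16 in the arrays labelled cKO, against 4.64, 4.58 and 4.89 in control, and its adhesion partner Hepacam read -0.60, -0.66 and -0.72 in the arrays labelled cKO, against -0.58, -0.45 and -0.11 in control. Both separated the groups, Hepacam by a narrow margin between cKO replicate 1 and control replicate 1. The differences were -0.46 (95% confidence interval -0.68 to -0.25, adjusted p = 0.23) for Aqp4. For Mlc1 the difference was -0.44 (adjusted p = 0.36), and for Hepacam it was -0.28 (adjusted p = 0.76).

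Of the connexins that couple astrocytes through gap junctions, Gja1 read -0.52, -0.87 and -0.68 in the arrays labelled cKO, against -0.14, -0.30 and -0.23 in control, the mean of 10 spots per array. Gjb6, which appears later in development, read 0.51, 0.02 and 0.54 in the arrays labelled cKO, against 1.52, 1.15 and 0.48 in control. Gja1 separated the groups, and Gjb6 did not, because control replicate 3 lay below 2 of the 3 arrays labelled cKO. Their differences were -0.47 (95% confidence interval -0.74 to -0.19, adjusted p = 0.33) for Gja1 and -0.70 (95% confidence interval -1.36 to -0.04, adjusted p = 0.63) for Gjb6, the widest interval of the list.

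Among the ion and solute carriers, Slc4a4, a sodium bicarbonate cotransporter, read 1.06, 0.94 and 0.90 in the arrays labelled cKO, against 1.35, 1.46 and 1.18 in control. Slc15a2, a peptide carrier, read -0.82, -0.72 and -0.70 in the arrays labelled cKO, against -0.36, -0.53 and -0.01 in control, and Slc14a1, a urea carrier, read -1.09, -1.41 and -1.67 in the arrays labelled cKO, against -1.0, -1.02 and -0.84 in control. All 3 separated the groups without overlap, Slc14a1 by a margin of under 0.1 between cKO replicate 1 and control replicate 2. Ttyh1, a membrane protein of the tweety family, read 4.26, 4.46 and 4.21 in the arrays labelled cKO, against 4.64, 4.70 and 4.46 in control, with control replicate 3 just below the highest array labelled cKO. The differences were -0.37 for Slc4a4 (adjusted p = 0.43), -0.44 for Slc15a2 (adjusted p = 0.50), -0.44 for Slc14a1 (adjusted p = 0.55) and -0.29 for Ttyh1 (adjusted p = 0.61). Atp1b2, the glial beta subunit of the sodium pump, overlapped and differed by -0.20 (adjusted p = 0.94).

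Slc4a4 had 3 probes, and the pair at chr5:89663826-89663885 and chr5:89663838-89663897 (mm9, plus strand) share 48 bases, in capitals. They differed by -0.42 and -0.37, as near-copies of one another, and count as 1 reading. The remaining probe is dim, differed by -0.36 and had overlapping groups.
Slc4a4, probe at base 3266: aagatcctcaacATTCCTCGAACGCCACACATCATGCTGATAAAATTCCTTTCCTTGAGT
Slc4a4, probe at base 3278: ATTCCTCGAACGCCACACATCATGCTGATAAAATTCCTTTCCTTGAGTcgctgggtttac

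All 8 enzymes and lipid-handling proteins were lower by sign, with a median of -0.40. Ndrg2, an astrocyte-enriched protein of the Ndrg family, read 3.82, 3.79 and 3.69 in the arrays labelled cKO, against 4.18, 4.20 and 4.20 in control. Its standard error of 0.085 was the smallest of the list, and no array of either group came near the other group. Aldoc, the brain aldolase of glycolysis, read 6.26, 6.23 and 5.91 in the arrays labelled cKO, against 6.78, 6.70 and 6.41 in control, and Acsbg1, an acyl-CoA synthetase that activates long-chain fatty acids, read 2.35, 2.40 and 2.12 in the arrays labelled cKO, against 2.72, 2.96 and 2.70 in control. Both separated the groups, with cKO replicate 3 the lowest array for each. The differences were -0.42 (95% confidence interval -0.63 to -0.22, adjusted p = 0.24) for Ndrg2. They were -0.50 for Aldoc (adjusted p = 0.41) and -0.50 for Acsbg1 (adjusted p = 0.32).

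Pla2g7, which breaks down platelet-activating factor, read 2.79, 2.71 and 2.58 in the arrays labelled cKO, against 3.02, 3.11 and 3.09 in control, and Ppap2b, a lipid phosphate phosphatase, read 2.62, 2.66 and 2.51 in the arrays labelled cKO, against 2.95, 2.98 and 3.0 in control. Aldh1l1, a folate enzyme widely used to mark astrocytes, read 3.72, 3.77 and 3.57 in the arrays labelled cKO, against 3.91, 3.90 and 4.07 in control. These 3 separated the groups as well, Aldh1l1 with the smallest difference among the 24 genes under an unadjusted p of 0.05. The differences were -0.38 for Pla2g7 (adjusted p = 0.33), -0.38 for Ppap2b (adjusted p = 0.30) and -0.27 for Aldh1l1 (adjusted p = 0.57). Dio2, the deiodinase that activates thyroid hormone, read 1.31, 1.70 and 1.48 in the arrays labelled cKO, against 2.30, 2.24 and 1.52 in control, so that control replicate 3 fell among the arrays labelled cKO. Fabp7, the brain lipid-binding protein of radial glia, read 5.83, 5.94 and 5.97 in the arrays labelled cKO, against 5.79, 5.76 and 6.22 in control. The difference was -0.52 for Dio2 (adjusted p = 0.68). For Fabp7 it was -0.01, with an interval of -0.35 to 0.33.

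Of 5 secreted proteins, 2 separated the groups. S100b, a calcium-binding protein that astrocytes release, read 1.47, 1.55 and 1.2 in the arrays labelled cKO, against 2.09, 2.41 and 1.77 in control. Apoe, the lipid carrier of the brain, read 5.98, 5.77 and 5.77 in the arrays labelled cKO, against 6.15, 6.27 and 6.51 in control. For both, the highest array labelled cKO lay below the lowest control array. The differences were -0.68 (95% confidence interval -1.12 to -0.25, adjusted p = 0.36) for S100b and -0.47 (95% confidence interval -0.77 to -0.17, adjusted p = 0.36) for Apoe. Clu (a chaperone), Itih3 (a hyaluronan-binding chain) and Sparcl1 (hevin, which promotes synapses) overlapped and differed by -0.21, -0.19 and -0.13, with adjusted p-values of 0.84, 0.93 and 0.98.

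Among receptors, Ntsr2, a neurotensin receptor of astrocytes, read 1.19, 0.90 and 0.38 in the arrays labelled cKO, against 1.28, 1.78 and 1.34 in control. Fgfr3, a receptor for fibroblast growth factors on radial glia and astrocytes, read 2.56, 2.75 and 2.41 in the arrays labelled cKO, against 3.03, 3.11 and 2.76 in control. Both separated the groups, Fgfr3 by less than 0.01 between cKO replicate 2 and control replicate 3, and cKO replicate 3 was the lowest array in both. The differences were -0.64 (95% confidence interval -1.2 to -0.09, adjusted p = 0.56) for Ntsr2 and -0.39 (95% confidence interval -0.72 to -0.07, adjusted p = 0.54) for Fgfr3. Sox9, a transcription factor that starts gliogenesis, read -0.32, -0.56 and -0.45 in the arrays labelled cKO, against -0.49, -0.81 and 0.27 in control, with control replicates 3 and 2 at opposite ends and all arrays labelled cKO between them. Its difference was -0.10 (95% confidence interval -0.72 to 0.53, adjusted p = 0.9961), and its sign turned when control replicate 3 was left out (0.21).

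Fgfr3 had a second probe, which the files place at chr1:183022230-183022289 (mm9, plus strand) although the gene lies on chromosome 5, where the brighter probe is. It differed by -0.07 with overlap. Its sequence is shown because the files' position and gene name are at odds.
Fgfr3, probe at base 2558 of its transcript: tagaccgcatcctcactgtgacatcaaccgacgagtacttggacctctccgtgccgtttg

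The metallothioneins, small proteins that bind zinc and copper, were lower in all 3 genes by sign. Mt2 read 3.98, 3.82 and 3.55 in the arrays labelled cKO, against 4.6, 4.70 and 4.41 in control, and Mt1 read 4.47, 4.34 and 4.03 in the arrays labelled cKO, against 4.89, 4.96 and 4.80 in control. Mt3, the form enriched in brain, read 2.08, 1.93 and 1.38 in the arrays labelled cKO, against 2.24, 2.20 and 2.16 in control. The arrays labelled cKO lay below every control array for each of them, and within the arrays labelled cKO the signal of each was lowest in replicate 3. The differences were -0.79 (95% confidence interval -1.12 to -0.45, adjusted p = 0.19) for Mt2, the second smallest p of the list. They were -0.61 (95% confidence interval -0.92 to -0.29, adjusted p = 0.28) for Mt1 and -0.40 (95% confidence interval -0.83 to 0.03, adjusted p = 0.71) for Mt3. A dimmer second Mt1 probe differed by -0.48 and separated the groups too.

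These 3 genes neighbour each other on chromosome 8, and their promoters are shown because the genes were lower together and because metal-response elements are the known metal switches of Mt1 and Mt2. Capitals mark matches to the metal-response core TGCACNC or TGCGCNC on either strand. Such a match is found in 25.7% of all 32851 promoters of 300 bases. The promoter of Mt1 lies at chr8:94178839-94179138, that of Mt2 at chr8:94172368-94172667 and that of Mt3 at chr8:94152357-94152656 (RefSeq, GRCm38.p6, plus strand). They held 3, 4 and 1 matches.
Mt1 promoter: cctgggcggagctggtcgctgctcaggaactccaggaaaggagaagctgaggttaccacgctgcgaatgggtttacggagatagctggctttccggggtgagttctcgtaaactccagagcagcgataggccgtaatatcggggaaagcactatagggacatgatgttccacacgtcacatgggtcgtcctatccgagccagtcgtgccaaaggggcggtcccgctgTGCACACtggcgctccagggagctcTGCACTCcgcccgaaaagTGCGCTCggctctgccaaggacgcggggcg
Mt2 promoter: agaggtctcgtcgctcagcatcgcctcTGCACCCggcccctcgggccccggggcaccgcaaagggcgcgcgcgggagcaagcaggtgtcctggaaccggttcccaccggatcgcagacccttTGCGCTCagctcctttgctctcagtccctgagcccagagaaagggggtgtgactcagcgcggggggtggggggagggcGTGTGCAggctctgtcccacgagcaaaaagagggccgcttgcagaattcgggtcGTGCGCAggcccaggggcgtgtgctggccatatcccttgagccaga
Mt3 promoter: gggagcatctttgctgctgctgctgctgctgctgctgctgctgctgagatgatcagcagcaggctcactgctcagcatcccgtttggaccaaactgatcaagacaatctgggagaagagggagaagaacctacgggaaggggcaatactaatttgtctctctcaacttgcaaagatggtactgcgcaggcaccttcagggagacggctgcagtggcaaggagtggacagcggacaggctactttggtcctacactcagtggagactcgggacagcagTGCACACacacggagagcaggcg

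A promoter was matched for 30 of the 36 genes. The genes without one were Aqp4, Atp1b2, Clu, Slc14a1, Sox9 and Sparcl1. These 30 genes had 37 promoters, because some genes had several, and the shares of all promoters are counted per promoter. The metal-response core was found for 10 of the 30 genes and in 10 of the 37 promoters, beside 25.7% of all promoters. The STAT motif was found for 6 of the 30 genes and in 6 of the 37 promoters, beside 8.30% of all promoters. TAATTA, the core that LIM-homeodomain factors such as Lhx2 can bind, was found for 2 genes, Slc1a3 and Ppap2b. It was in 2 of the 37 promoters, beside 5.29% of all promoters. The paired nuclear factor I site (the full palindrome) was found in 0 of the 37, beside 0.037% of all promoters. Whether any of these shares differ was not tested. A match is a description of the letters and not of a bound site.

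For 7 pairs of related genes, the members were set against each other by the difference of their log2 signals on each array, with an exact two-sided permutation test over the 20 splits of 6 arrays, whose smallest p is 0.1. Gfap was lower relative to Vim by -0.84 and relative to Nes by -1.17, with no overlap between the groups (exact permutation p = 0.1 for each, 0.14 adjusted over the 7 pairs). Mt2 was lower relative to Mt1 by -0.18. Mt3 was higher relative to Mt1 by 0.21 and relative to Mt2 by 0.39, each again at the smallest p the design allows. Slc1a2 relative to Slc1a3 gave -0.25 (exact permutation p = 0.4, 0.467 adjusted) and Gjb6 relative to Gja1 gave -0.23 (exact permutation p = 0.5, 0.5 adjusted). No pair could reach 0.05 in this design.

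**Figure D2:**
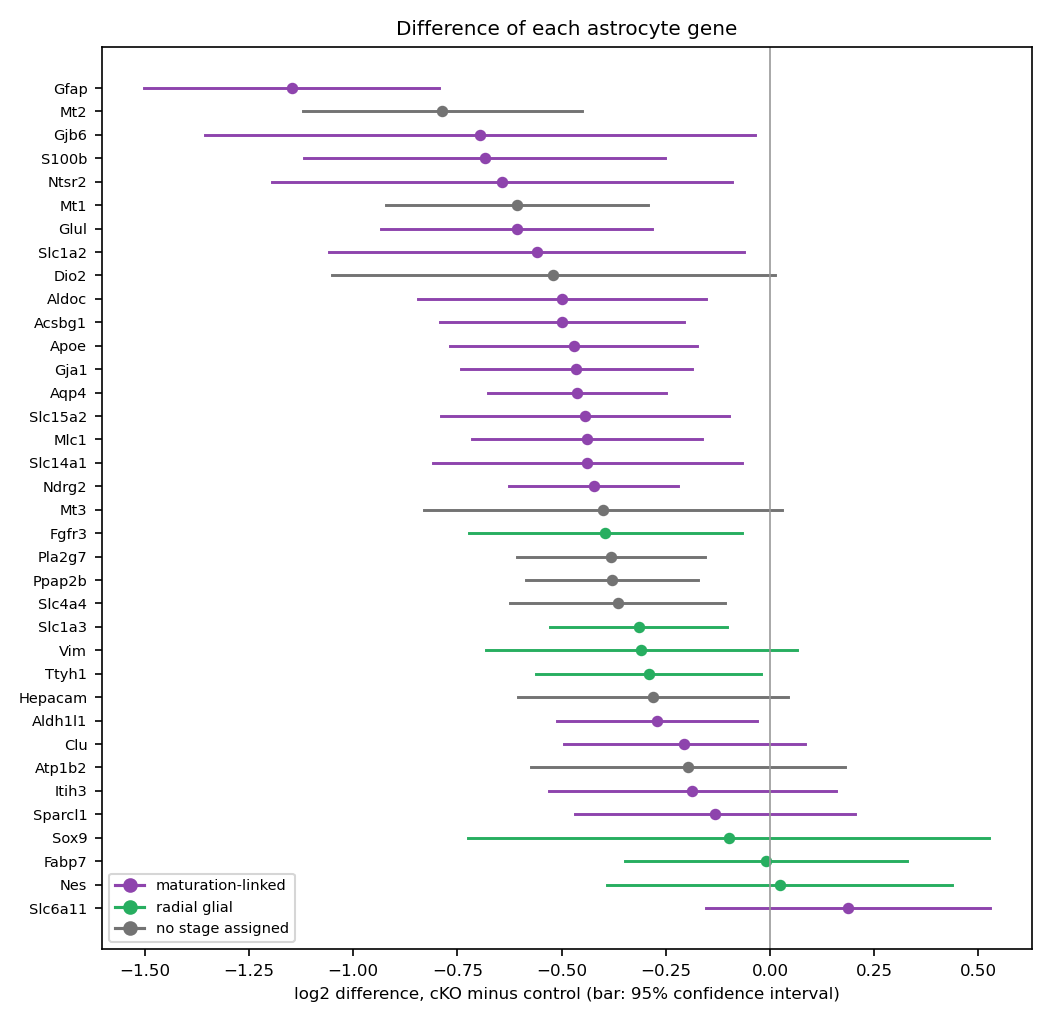
Difference of each astrocyte gene in log2 signal, cKO minus control (x axis), with its 95% confidence interval from limma, for 3 arrays labelled cKO and 3 control arrays, coloured by developmental stage. The intervals of 24 genes lie below 0, and Nes and Slc6a11 are the genes with a point above 0.

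Genes known from later astrocytes were then set beside those shared with radial glia. Both lists were chosen with earlier results of these data known, so their contrast is a description and not a test. Of 20 maturation-linked genes, 19 were lower by sign and 16 had an unadjusted p under 0.05, with a median difference of -0.46. Of 7 radial glial genes (Fabp7, Fgfr3, Nes, Slc1a3, Sox9, Ttyh1 and Vim), 6 were lower by sign and 3, namely Slc1a3, Fgfr3 and Ttyh1, had an unadjusted p under 0.05, with a median of -0.29. The 9 genes with no stage assigned were all lower by sign, with a median of -0.38. A difference below -0.4 was seen in 15 of the 20 maturation-linked genes and in 0 of the 7 radial glial genes, though Fgfr3 lay at -0.39 and passed that size with quantile normalization (-0.41). Among 10 further radial glial and cell division genes, 5 were below -0.4.

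The gap between the stage medians was -0.17, and it did not separate the arrays. Per array, the maturation-linked median minus the radial glial median was -0.05, -0.21 and -0.42 in the arrays labelled cKO, against -0.05, 0.20 and -0.19 in control. The ranges overlapped, and the lowest value came from cKO replicate 3 and the highest from control replicate 2. The gap moved to -0.43 when arrays were weighted by their quality, to -0.37 without the 2 arrays with Y-linked signal, to -0.33 with a term for that signal and to -0.32 without cKO replicate 1 alone.

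**Figure D3:**
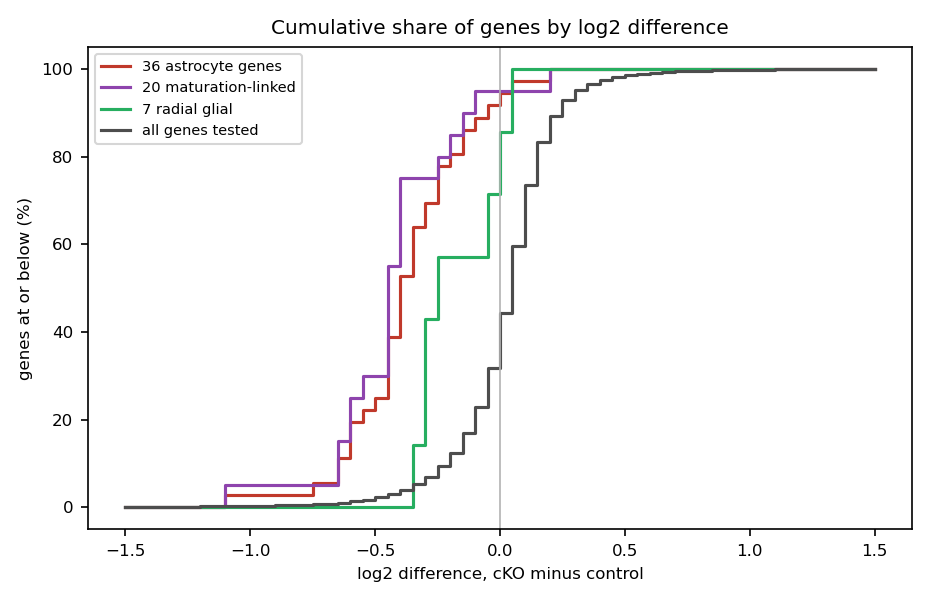
Cumulative share of genes (y axis, percent) at or below each log2 difference, cKO minus control (x axis), for the 36 astrocyte genes, their 20 maturation-linked and 7 radial glial members and all genes tested. At -0.4 the curves stand at 52.8% for the 36 genes, 75% for the maturation-linked, 0% for the radial glial and 3.97% for all genes, and at -0.3 at 69.4%, 75%, 42.9% and 6.97%.

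Across arrays, the median of the 36 genes relative to their control means was -0.35, -0.36 and -0.50 in the arrays labelled cKO, against 0.01, 0.02 and -0.01 in control. The control arrays lay close together, and all 3 arrays labelled cKO lay below them. cKO replicate 3 was the lowest of its group for 25 of the 36 genes and the lowest of all 6 arrays for 24. Without it the median of the list was -0.36, beside 0.02 over all genes, and 18 genes had an unadjusted p under 0.05. The share of all genes under that p was not counted for that fit. Control replicate 3 was the least even: it was the lowest control for 16 genes and the highest for 13. It lay below the highest array labelled cKO for 8 genes, which were Slc1a2, Gjb6, Atp1b2, Sparcl1, Slc6a11, Dio2, Itih3 and Ttyh1.

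The slide row, but not the slide column, was shared by 2 pairs of arrays: in both pairs the array labelled cKO lay in column 2, which held no control array, and the control array in column 1, so column and label cannot be told apart within them. In the slide row with cKO replicate 2 and control replicate 1, 32 of the 36 genes were lower in the array labelled cKO, with a median of -0.36. In the row with cKO replicate 3 and control replicate 2, 32 were lower with a median of -0.51, and 30 were lower in both rows. The share of all genes lower within a row was not counted. Relative to control means, the median of all genes was -0.02 in cKO replicate 2 and -0.02 in control replicate 1. It was 0.02 in cKO replicate 3 and 0.01 in control replicate 2. With a term for Y-linked signal the median of the list was -0.39, beside 0.02 over all genes. In that fit 32 genes were lower by sign and 15 had an unadjusted limma p under 0.05. The matching shares of all genes were not counted for that fit. Leaving out the 2 arrays that carry that signal leaves 1 control array, which is assumed to vary like the others. The median of the list was then -0.40, beside 0.01 over all genes, and 32 genes were lower by sign.

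For 9 genes more than 1 probe was read, and in all 9 the probes had the same sign. Over the 48 probes, 46 were lower by sign. That count includes the 27 genes read by 1 probe, both Slc4a4 near-copies and the Fgfr3 probe placed on another chromosome. The share of all probes lower by sign was not counted.

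**Figure D4:**
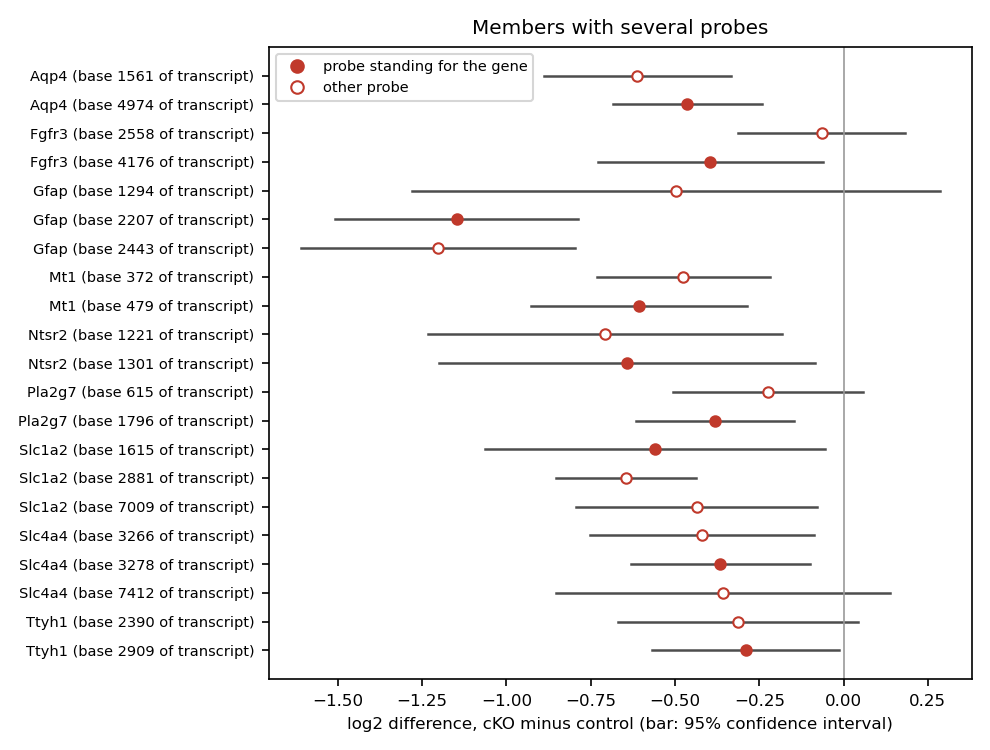
Difference in log2 signal, cKO minus control (x axis), for each probe of the 9 astrocyte genes with several probes, with its 95% confidence interval from the fit over all probes (3 arrays labelled cKO, 3 control arrays). Filled points stand for the gene, open points are its other probes, and the dim Gfap probe and the second Fgfr3 probe are the ones farthest from the brighter probe of their gene.

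Astrocyte genes outside the 36 were read from further lists. Of 30 further astrocyte genes, 26 were lower by sign and 14 had an unadjusted p under 0.05, with a median of -0.30. The 4 with the smallest p were Cyp4f14 (-0.66, adjusted p = 0.098), Plcd4 (-0.60), Entpd2 (-0.64), an ectonucleotidase, and Btbd17 (-0.36). Bmpr1b, a receptor for bone morphogenetic proteins, was higher at an unadjusted p under 0.05, by 0.74, and is named after its value was seen. None of the 30 passed the adjusted threshold.

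Of 23 genes that regulate astrogliogenesis, 20 were lower by sign, 9 with an unadjusted p under 0.05, and the median was -0.29. Lifr (-0.65) and Cntfr (-0.36), receptor subunits for the cytokines that induce Gfap, were among the 4 with the smallest p, together with Id4 (-0.48), an inhibitor of neuronal helix-loop-helix factors, and Nfia (-0.36), a nuclear factor I gene that drives gliogenesis. Hes5, a Notch target, was higher by 0.34 at an unadjusted p under 0.05 and is named after its value was seen. Stat3, the factor downstream of those receptors, differed by -0.01 and is likewise named after its value was seen. Of 10 further radial glial and cell division genes, 8 were lower by sign and 3 had an unadjusted p under 0.05 (Hopx, Cdk1 and Dbi), with a median of -0.40. Their medians per array did not overlap, at -0.47, -0.31 and -0.29 in the arrays labelled cKO, against -0.08, -0.17 and 0.25 in control. None of these genes passed the adjusted threshold.

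Genes of reactive astrocytes, which rise after injury, were mostly lower by sign. Of 17 listed, 14 were tested, 13 were lower by sign and 2 had an unadjusted p under 0.05, Tm4sf1 (-0.36) and Osmr (-0.32), with a median of -0.21. Their medians per array overlapped, at -0.16, -0.57 and -0.03 in the arrays labelled cKO, against 0.05, -0.18 and 0.10 in control. The meningeal list described below was also lowest in cKO replicate 2, with medians of -0.31, -1.15 and 0.22 in the arrays labelled cKO. Its control medians were 0.25, -0.28 and 0.04. Whether cells other than astrocytes carry the reactive genes here was not tested. Steap4, Cxcl10 and Ggta1 were not well above background on enough arrays to be tested.

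Markers of several other cell types were lower by sign beside the astrocyte genes, and their part in the differences above was not tested. Sums are of linear signals in units of each array's 75th percentile. Of 14 microglial genes, 14 were lower by sign and 10 had an unadjusted p under 0.05, with a median of -0.57, larger in size than that of the astrocyte genes, and Cx3cr1 differed by -0.82. Their summed signal was 244.6 to 274.0 in the arrays labelled cKO, against 266.1 to 311.4 in control. Of 16 genes of the oligodendrocyte lineage, 14 were lower by sign and 8 had an unadjusted p under 0.05, with a median of -0.33. Enpp6 and Cnp, of newly formed and myelinating oligodendrocytes, differed by -1.52 and -0.98. The summed signal of that list was 140.8 to 163.9 in the arrays labelled cKO, against 171.5 to 212.4 in control. The oligodendrocyte sums did not overlap between the groups, and the microglial sums did.

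Of 9 meningeal genes, 9 were lower by sign and 0 had an unadjusted p under 0.05, with a median of -0.46. Their summed signal was 43.9 to 153.5 in the arrays labelled cKO, against 111.8 to 193.8 in control, and cKO replicate 2 alone held the low value, against 151.1 in cKO replicate 1. Most of each sum was Ptgds, the brightest of these genes, which is named after its value was seen. It read 6.99, 4.95 and 6.85 in the arrays labelled cKO, against 7.29, 6.45 and 6.93 in control. Of 9 genes of ependyma and choroid plexus, 8 were lower by sign with a median of -0.37, and the sums were 2.96 to 4.69 in the arrays labelled cKO, against 4.85 to 6.22 in control. Of 14 genes of endothelium and pericytes, 10 were lower by sign with a median of -0.14, and the sums were 27.1 to 31.3 in the arrays labelled cKO, against 27.2 to 36.1 in control. Of 14 general neuronal genes, 7 were lower and 7 higher by sign with a median of -0.05, and the sums were 535.6 to 590.7 in the arrays labelled cKO, against 505.1 to 545.8 in control. An unadjusted p under 0.05 was reached by Ccdc153 (-0.68), an ependymal gene, by Pdgfrb (-0.35), a pericyte gene, and among neuronal genes by Gad2 (-0.38), Nefm (-0.59), Slc17a6 (-0.35) and Neurod2 (0.28), and no gene of any of these lists passed the adjusted threshold. Every tested gene was read by a probe well above background on at least 3 arrays.

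**Figure D5:**
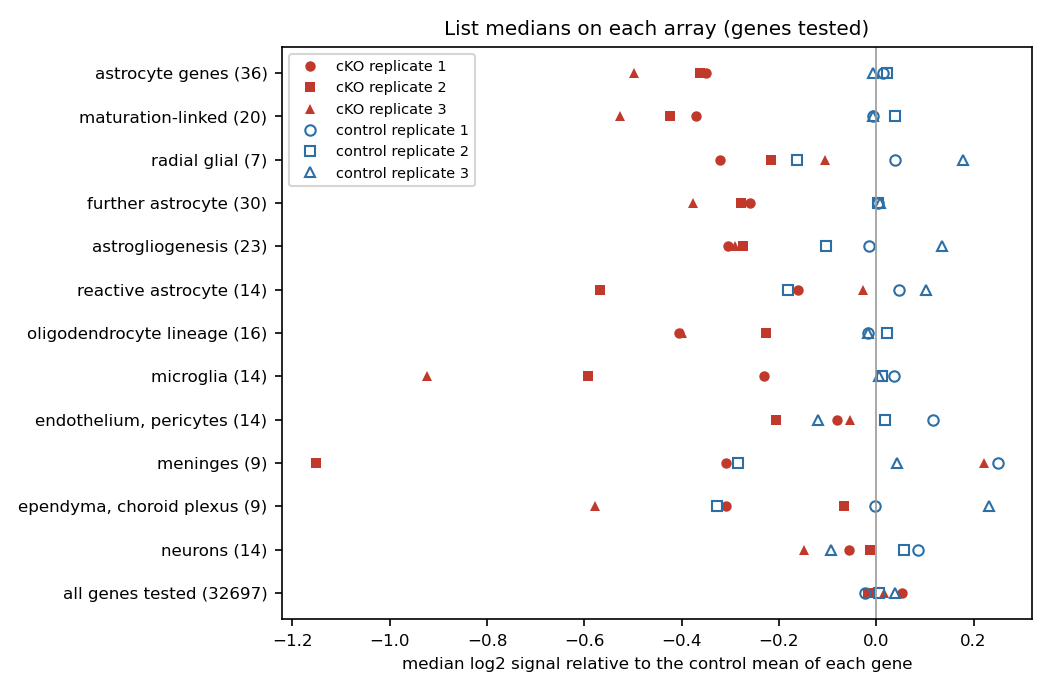
Median log2 signal of each gene list on each array, relative to the control mean of each gene (x axis), with arrays labelled cKO as filled red marks and control arrays as open blue marks, and the number of genes tested in brackets. The arrays labelled cKO lie below every control array for the 36 astrocyte genes, the maturation-linked, further astrocyte and astrogliogenesis lists, the oligodendrocyte lineage and microglia, and overlap with control for the 7 radial glial genes, reactive astrocytes, vessels, meninges, ependyma and neurons.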

How the data were processed

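RNA of 6 S1 samples was amplified, labelled with Cy3 and hybridised to one-colour Agilent arrays, per the labels' protocols. The scanner files give processed intensities that Feature Extraction 10.5.1.1 had background-subtracted, per the file headers. The authors' deposited series matrix holds log2 values of the same arrays and served only as an alternative.

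Spots flagged as outliers were left out, spots of a probe were averaged, and the log2 intensity was taken minus each array's 75th percentile over non-control probes. Probes well above background on at least 3 arrays were kept (50030), and the brightest probe stood for a gene (32697 genes). Groups were taken from the sample labels and compared with limma 3.58.1 in R 4.3.3, after a test on simulated data. Gene names were updated through RefSeq (GRCm38.p6), which matched 28331 probes by accession, 428 by another accession, 2034 by symbol and 162 by synonym, and 24726 kept the files' name. Probe positions are the files' own (mm9), and exon and UTR annotation of that build was not used here.

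The astrocyte genes and all lists were chosen with earlier results of these data known. Array values are printed for genes with an unadjusted p under 0.05, for filaments, transmitter transporters, connexins and metallothioneins, for the 12 smallest p-values and for a few others, namely Hepacam, Dio2, Fabp7 and Sox9, chosen after their values were seen. Up to 4 genes with the smallest p were named from each other list, with any further gene marked. Whether replicate numbers pair the samples is not known. Deviations of same-numbered arrays correlated at -0.20, 0.08 and 0.17, and those of other-numbered arrays at -0.27 to 0.24. With 3 arrays per group these correlations cannot decide it. Alternatives covered scaling, background correction, filters, probe choice, variance model, slide row, Y-linked signal, the authors' values and leaving out each array.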

Additional observations from a re-analysis of the deposited data

How the results depend on the processing

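Over 22 alternatives, the median difference of the astrocyte genes ran from -0.46 to -0.36, and 33 of the 36 genes kept their sign. The median moved by less than 0.08, the SD of the list medians over the 3 arrays labelled cKO alone. The count of astrocyte genes past the adjusted threshold, 0 as reported, was 1 with median centring, 1 with normexp background correction and 75th percentile scaling and 1 with normexp and quantile normalization (Gfap each time), 2 with an intensity trend and robust variance (Gfap and Mt2) and 11 with array weights, which gave control replicate 2 a weight of 3.61 and cKO replicate 3 a weight of 2.17. The count over all genes, 3 as reported, was 12 with quantile normalization, 24 with median centring, 89 and 75 with the normexp settings, 0 without a filter on dim probes, 13 with a filter on all 6 arrays, 110 with the trend, 453 with array weights, 0 with slide row as a term, 1 with a term for Y-linked signal, 12 with the authors' values, 1 with each probe tested separately and 0 to 4 with 1 array left out. With the replicate number as a block, 0 genes passed and the median of the astrocyte genes stayed at -0.41. The limma adjusted p of Gfap was 0.36 in that fit. Whether the numbers pair the samples is not known. The gap between maturation-linked and radial glial medians moved to -0.43 with array weights, -0.37 without the arrays with Y-linked signal and -0.33 with the Y-linked term, and ran from -0.32 (without cKO replicate 1) to -0.15 with 1 array left out.

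The sign turned for 3 genes with small differences. Sox9 read 0.21 with array weights, 0.33 with the Y-linked term, 0.37 without the arrays with Y-linked signal, and -0.33 to 0.21 with 1 array left out (0.21 without control replicate 3). Fabp7 read 0.14, 0.13 and 0.15 under the first 3 of these, and -0.091 to 0.14 with 1 array left out (0.14 without control replicate 3 and 0.03 without cKO replicate 1). Nes read -0.10 to 0.19 with 1 array left out, at -0.06 without cKO replicate 3, -0.02 without control replicate 1 and -0.10 without control replicate 2. The cause was not tested. Gfap kept its direction, at -1.26 to -0.95, while its adjusted p ran from 0.012 to 0.90. A block for slide or scan could not be fitted, since 1 slide held all arrays. With 3 arrays per group, the standard error of a gene was 0.085 to 0.28, so differences of the size of most of these genes were not detectable after adjustment over all genes.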
